A study of Mus musculus with 12 samples.

Results

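Interferon-stimulated genes were followed in T follicular helper cells of mice that carried either wild-type Pdcd1 or a homozygous Pdcd1 knock-in. Pdcd1 encodes PD-1, an inhibitory receptor of activated T cells. The members were the rows of the count table that matched a fixed list of 42 mouse gene symbols. A row was found for 41 of them, among 25793 genes in all, and Gbp7 was the one without a row under its symbol. The filter on low counts kept 35 members among 7542 genes, and the other 6 members with a row (Isg15, Ifit2, Oas2, Oasl1, Bst2 and Irgm1) are given separately.

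The study had 12 libraries, 6 labelled Pdcd1+/+ (WT) and 6 labelled Pdcd1KI/KI (KI), all on the C57BL/6 strain. All were CXCR5hi GFP+ CD4+ OT-II T cells, which carry 1 transgenic T cell receptor for an ovalbumin peptide and had been transduced to express GFP. In every group these cells had been moved into B6 hosts along with dsRed-marked B cells of the MD4 transgenic line, which recognise lysozyme from hen eggs. The hosts received HEL-OVA under the skin, listed as given with LPS and alum, and lymph node cells were sorted on day 5. The hosts kept their own immune cells, and each library came from a small pool of sorted cells amplified by a protocol made for single cells. The ages of the animals, what the knock-in allele changes, and what the 2 numbers in each title stand for are not given in the sources used here. Nothing states that the libraries came from separate animals, so p-values measure the spread between these libraries, which may be technical. Each first title number (1 or 2) covered 3 WT and 3 KI libraries, and a library is named below by its genotype and both numbers.

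Type I interferons signal through JAK kinases to a complex that contains STAT2 and IRF9 and binds the interferon-stimulated response element (ISRE). Interferon gamma acts mainly at gamma-activated sites (GAS). IFIT, OAS and MX proteins are classic products of the first route, while guanylate-binding proteins (GBP), immunity-related GTPases (IRGM) and IRF1 are classic products of the second. Many genes answer both. In T cells these signals shape survival, Th1 and follicular helper differentiation and memory.

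The 4 members with the smallest p between the first title numbers among those with a window in RefSeq's promoter table (build GRCm38.p6) are shown here, because all 4 were lower at number 2 and the elements known to answer interferon can be compared among them. Each window runs from 250 bases before to 50 bases after an annotated start and is printed 5′ to 3′ along the gene's strand. The sequences were placed on NCBIM37, the build that matches the mm9 named in the submitters' notes, by exact match, and each matched once. Capitals mark matches to the ISRE core GAAANNGAAA or the GAS core TTCNNNGAA, each searched on both strands.
Irf7, chr7:148452274-148452573, minus strand: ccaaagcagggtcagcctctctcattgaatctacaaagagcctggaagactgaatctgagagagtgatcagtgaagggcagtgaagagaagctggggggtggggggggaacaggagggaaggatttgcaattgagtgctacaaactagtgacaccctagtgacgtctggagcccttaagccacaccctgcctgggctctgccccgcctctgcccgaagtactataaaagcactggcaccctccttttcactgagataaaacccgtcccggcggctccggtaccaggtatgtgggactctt
Adar, chr3:89534390-89534689, plus strand, the third of its 3 windows and the one with a match: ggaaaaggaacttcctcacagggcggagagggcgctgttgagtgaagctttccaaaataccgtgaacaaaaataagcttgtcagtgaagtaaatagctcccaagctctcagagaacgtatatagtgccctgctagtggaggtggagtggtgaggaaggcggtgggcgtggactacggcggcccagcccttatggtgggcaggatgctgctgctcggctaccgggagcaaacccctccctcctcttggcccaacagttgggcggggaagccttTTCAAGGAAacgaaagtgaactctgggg
Oas1a, chr5:121357485-121357784, minus strand: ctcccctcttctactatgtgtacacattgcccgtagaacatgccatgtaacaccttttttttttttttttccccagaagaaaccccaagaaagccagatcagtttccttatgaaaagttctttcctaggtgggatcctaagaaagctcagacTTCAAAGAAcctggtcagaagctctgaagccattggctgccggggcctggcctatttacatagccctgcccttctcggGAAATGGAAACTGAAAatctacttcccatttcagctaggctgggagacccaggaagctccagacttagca
Lgals3bp, chr11:118263224-118263523, minus strand: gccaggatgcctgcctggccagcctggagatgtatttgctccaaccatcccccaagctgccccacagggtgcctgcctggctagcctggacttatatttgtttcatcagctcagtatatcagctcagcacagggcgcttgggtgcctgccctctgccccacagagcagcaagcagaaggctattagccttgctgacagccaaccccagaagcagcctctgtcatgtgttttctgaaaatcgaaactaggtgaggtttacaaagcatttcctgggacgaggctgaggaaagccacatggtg
The Oas1a window held a GAS core from base 153 to 161 and 2 overlapping ISRE cores from base 231 to 240 and 237 to 246, just upstream of the start. The Adar window held a GAS core at bases 273 to 281. No match was found in the Irf7 and Lgals3bp windows. Only exact matches to the 2 cores were searched for, so variant elements with another base or spacing were missed. Of the 42 members, 33 had an entry in the table, with 42 windows. An ISRE core was found in 17 of these 42 windows (40.5%) against 1131 of all 32851 windows of the same length (3.44%), and a GAS core in 11 (26.2%) against 2726 (8.30%). The ISRE core was found in 5 of 8 type I-like members and in 5 of 6 gamma-like members with an entry.

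Total gene counts ran from 717506 to 1801504 per library, and 3 counts, the limit that a count of 0 allows, were worth 1.46 to 5.37 CPM. CPM is the count scaled to a common library total, here one adjusted by TMM, edgeR's scaling method. Intervals of this kind cover counting error only. Pdcd1 itself was at 166 to 523 CPM in the WT libraries and 21.5 to 129.5 CPM in the KI libraries, so the groups did not overlap. Its log2 difference was -2.05 (edgeR adjusted p = 0.231 over both first numbers, 0.0400 within number 1 and 0.00103 within number 2; 0.00123 in DESeq2). The 7 T cell markers (Cd3e, Cd3d, Cd3g, Cd4, Cd2, Cd5 and Lck) summed to 3918 to 5488 CPM in every library. Of 3 follicular helper genes, Cxcr5 was at 340 to 801 CPM, Icos at 284 to 1066 CPM and Bcl6, at low counts, at 1.27 to 17.4 CPM, with 0 past the threshold between the genotypes. Between the first title numbers Cxcr5 (log2 difference -0.72, edgeR adjusted p = 0.00208) and Pdcd1 (-1.56, adjusted p = 8.38e-05) were lower and Icos (0.76, adjusted p = 0.0158) higher at number 2. The 5 markers of B cells that passed the filter summed, with Blk, to 113 to 309 CPM. Macrophage and monocyte markers summed to 1.24 to 234 CPM, highest in WT 1-3, with Cd14 at 0 throughout. Plasmacytoid dendritic cell markers, among them the member Bst2, summed to 6.27 to 64.4 CPM. Markers of NK and CD8 T cells summed to 48.4 to 191 CPM at first number 1 and to 219 to 471 CPM at number 2, and all 3 that passed the filter (Nkg7, Klrb1c and Cd8b1) were higher at number 2, with Ncr1 at 0 throughout. Nkg7 alone had a mean of 78.8 CPM at number 1 and 328 CPM at number 2. Below the filter, Gzma was above 0 in KI 2-2 alone. Mean Prf1 rose from 3.55 CPM at number 1 to 9.53 CPM at number 2 in WT and fell from 3.28 to 1.41 CPM in KI. Between the genotypes 0 markers of these lists passed in edgeR. DESeq2 called the B cell marker Ms4a1 (adjusted p = 0.0370), at 12.6 to 58.9 CPM in WT and 2.75 to 14.6 CPM in KI, and Cd79b and Cd79a had lower fitted levels in KI (log2 -1.36 and -1.32) while Cd22 had a higher one (0.55). The part of B cell RNA in the genotype comparison of the members was not tested.

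To compare members with each other, levels were taken per transcript length from the deposited FPKM values. Over all 12 libraries the highest mean FPKM belonged to Ifi47, an immunity-related GTPase, at 139 ± 46.9 (SD, n = 12). Next came Zbp1, a sensor of Z-form nucleic acids, at 100.1 ± 41.5, the exonuclease gene Isg20 at 79.4 ± 38.0, and the GTPase gene Igtp at 72.1 ± 29.5 FPKM (SD, n = 12 each). Zbp1, Isg20 and Igtp lay within 1 SD of each other. The lowest were Ifit2 at 0.875 ± 0.994, Irgm1 at 0.934 ± 1.14 and Oas2 at 1.42 ± 1.59 FPKM (SD, n = 12 each), all with an SD above the mean. Isg15, which encodes a ubiquitin-like protein and is among the most induced genes after type I interferon, was at 5.49 ± 3.28 FPKM (SD, n = 12).

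Between KI and WT, 26 of the 35 tested members had a higher and 9 a lower fitted level in KI, with a median log2 difference of 0.25 against 0.02 over all 7542 genes. None passed the threshold. The edgeR quasi-likelihood test, with Benjamini-Hochberg adjustment over all tested genes, called 0 of 35 members (lowest adjusted p = 0.917), beside 2 of 7542 genes (0.0265%). DESeq2 and limma-voom also called 0. An unadjusted p under 0.05 was reached by 2 members (5.71%), Oas3 and Ifih1, close to the 5.40% of all genes. For 0 members did the ranges of the 6 KI and 6 WT libraries stand apart, against 0.371% of all genes. These fits had genotype alone, as did those behind the values of the genes named next. With the first title number as a replicate block, edgeR also called 0 of 35 members (lowest adjusted p = 0.465), beside 4 of 7542 genes (0.053%). In such bulk samples fewer cells of a type and less RNA per cell cannot be told apart.

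Oas3, a synthetase of the 2-5A messenger that activates RNase L, had the smallest p among the higher members. Its CPM ran from 16.3 over a median of 45.2 to 66.2 in WT and from 37.4 over 74.9 to 131 in KI, with overlap between the groups. The log2 difference was 0.89 (SE 0.37; unadjusted p = 0.0256, edgeR adjusted p = 0.917). Ifih1 encodes MDA5, a sensor of long double-stranded RNA, and ran from 5.37 over 21.2 to 36.6 CPM in WT and from 27.9 over 36.8 to 56.1 CPM in KI. Its log2 difference was 0.85 (SE 0.40; unadjusted p = 0.0466, edgeR adjusted p = 0.917). Zbp1 ran from 67.0 over 92.2 to 98.5 CPM in WT and from 78.4 over 109.8 to 197 CPM in KI, a log2 difference of 0.49 (SE 0.24; edgeR adjusted p = 0.919). All 3 had a higher KI median, and none separated the genotypes. The 4 sensors (Zbp1, Ifih1, Ddx58 and Dhx58) all had a higher fitted level in KI, by 0.49 to 0.89 on the log2 scale, without any passing.

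Among members with a lower fitted level in KI, Sp100, a component of PML nuclear bodies, had the smallest p. It ran from 84.9 over 139.9 to 186 CPM in WT and from 66.3 over 104 to 159 CPM in KI, a log2 difference of -0.32 (SE 0.25; edgeR adjusted p = 0.938). Gbp2, a guanylate-binding protein that acts against intracellular pathogens, ran from 50.2 over 85.4 to 148 CPM in WT and from 46.4 over 61.9 to 127 CPM in KI (log2 difference -0.28, SE 0.32; edgeR adjusted p = 0.948). The groups overlapped for both genes. Ifit1, which binds viral RNA lacking cap methylation, ran from 22.5 over 35.9 to 75.2 CPM in WT and from 0 over 33.1 to 62.9 CPM in KI (log2 difference -0.48, SE 0.61; edgeR adjusted p = 0.954). Its 0 was in KI 2-3, where no count still allows up to 2.08 CPM.

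The transcription factors behind the response showed no separation either. Irf1 ran from 84.1 over 109.5 to 127 CPM in WT and from 82.3 over 135 to 189 CPM in KI (log2 difference 0.38, SE 0.23; edgeR adjusted p = 0.938). Irf7, the factor that amplifies type I interferon production, ran from 35.5 over 67.3 to 181 CPM in WT and from 44.3 over 104 to 180.4 CPM in KI (log2 difference 0.35, SE 0.44; edgeR adjusted p = 0.954). Within both genotypes its libraries fell into a high and a low set that followed the first title number. Stat2 ran from 8.16 over 45.7 to 72.6 CPM in WT and from 9.26 over 28.0 to 113 CPM in KI (log2 difference -0.18, SE 0.51; edgeR adjusted p = 0.975). The direction of Stat2 turned to 0.019 without WT 1-1 and to 0.033 without KI 2-2.

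**Figure D1:**
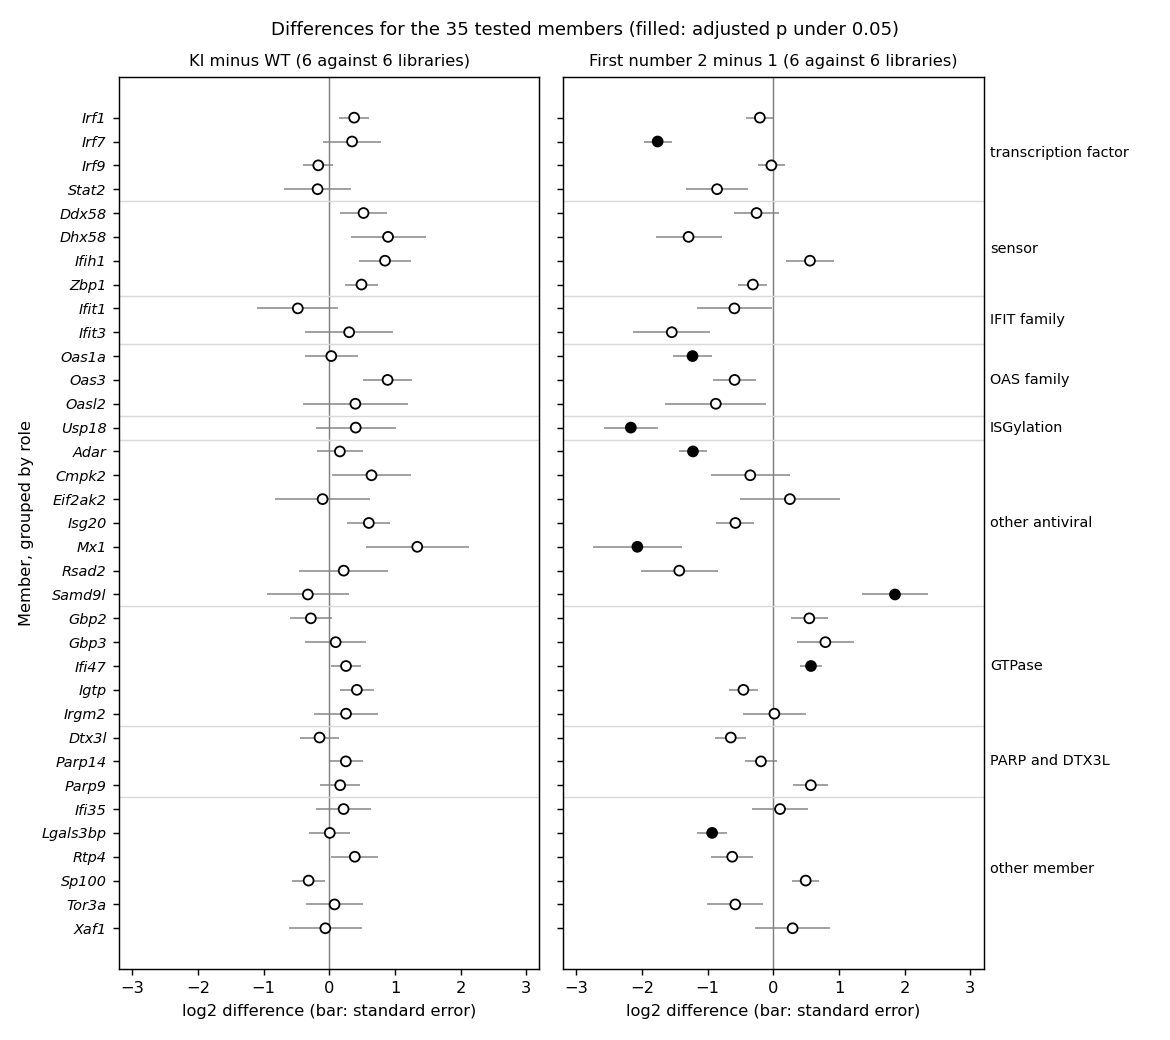
Log2 difference of each of the 35 tested members with its standard error, KI minus WT on the left and first title number 2 minus 1 on the right, grouped by role. Filled circles passed an adjusted p of 0.05 in edgeR's quasi-likelihood test: 0 on the left and 8 on the right, of which Irf7, Oas1a, Usp18, Adar, Mx1 and Lgals3bp lie below 0 and Samd9l and Ifi47 above.

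Between the first title numbers some members passed the threshold, as did many of all genes. With genotype kept in the fit, 8 of 35 members (22.9%) passed the threshold, 6 lower and 2 higher at number 2, beside 1208 of all genes (16.0%). By direction, 569 of all genes were lower (7.54%) and 639 higher (8.47%) at number 2. Of the 35 members, 24 had a lower and 11 a higher fitted level at number 2, with a median log2 difference of -0.46 against 0.01 over all genes. The libraries of both numbers stood apart without overlap for 3 members, Irf7, Adar and Oas1a, and for 6.48% of all genes. Of the 8 called members, only Irf7 and Ifi47 also passed in a fit of the WT libraries alone. In the KI libraries alone, Irf7, Adar, Oas1a, Usp18, Lgals3bp, Mx1 and Samd9l passed. The tested NK and CD8 T cell markers were higher at number 2, where 6 of the 8 called members were lower and 2 higher. The part of these markers in the result was not tested. Without WT 1-3 and WT 2-1, the libraries highest in those markers within each number, 9 members were called: 7 of the 8, without Ifi47 (adjusted p = 0.0758), and Isg20 and Oasl1. That run left the marker difference between the numbers in place. No number 1 library had a marker sum above 191 CPM and no number 2 library one below 219 CPM, so the run cannot show what part the markers had.

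**Figure D2:**
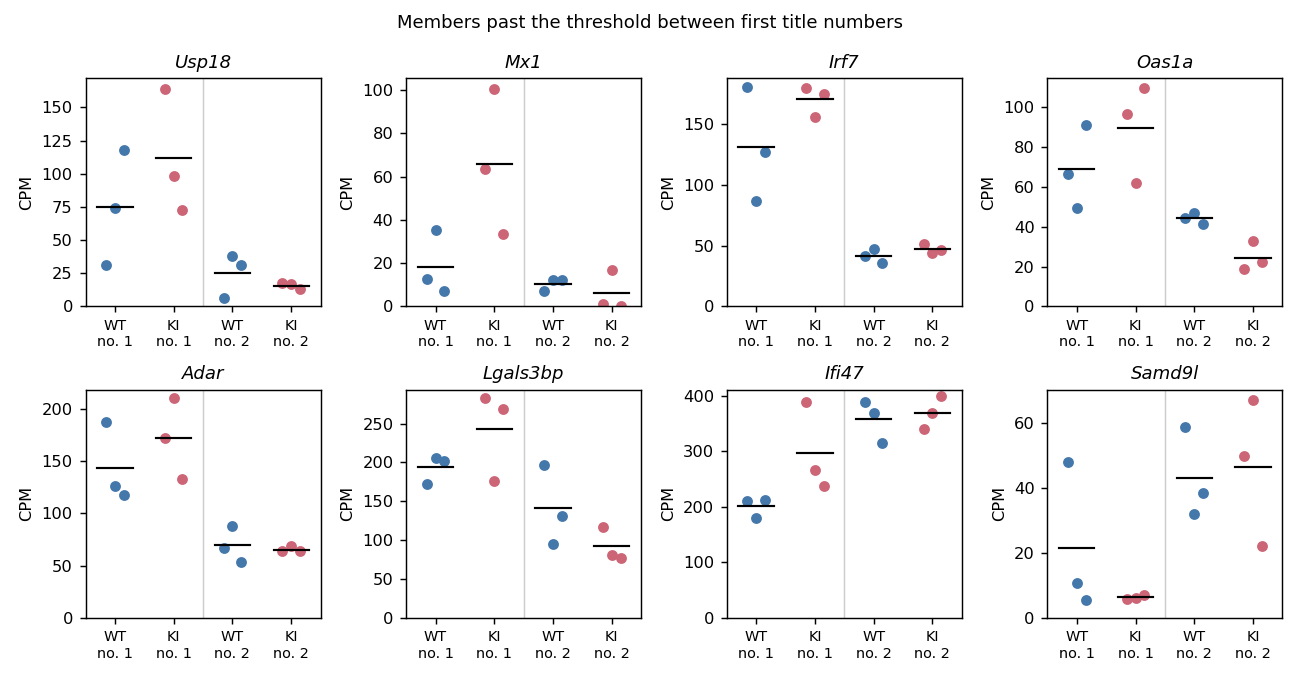
CPM of the 8 members past the threshold between first title numbers, by genotype and first number (no. 1 or no. 2). Each point is 1 library and each line the mean of 3. Irf7, Adar and Oas1a show every number 2 library below every number 1 library, while Samd9l and Ifi47 run the other way.

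Irf7 fell most clearly. At number 1 it ran from 87.3 over a median of 166 to 181 CPM, and at number 2 from 35.5 over 45.4 to 51.1 CPM. The log2 difference was -1.76 (SE 0.21; edgeR adjusted p = 2.35e-05), and it was -1.70 in WT alone and -1.85 in KI alone, past the threshold in each. Adar, which edits adenosine in double-stranded RNA, ran from 118 over 153 to 211 CPM at number 1 and from 53.6 over 65.1 to 88.3 CPM at number 2 (log2 difference -1.23, SE 0.21; edgeR adjusted p = 4.94e-04). Oas1a, another 2-5A synthetase, ran from 49.5 over 78.8 to 109.9 CPM at number 1 and from 18.7 over 37.1 to 46.7 CPM at number 2 (log2 difference -1.23, SE 0.29; edgeR adjusted p = 0.00646). Every number 2 library of these genes lay below every number 1 library. Irf7 lies on chromosome 7 (NCBIM37, 148448605 to 148452380, minus strand), where 45 of its 3023 exon bases also belong to Phrf1 on the other strand. Adar lies on chromosome 3 (89518944 to 89557368, plus strand) and Oas1a on chromosome 5 (121346265 to 121357536, minus strand), both without exon overlap in GENCODE vM1.

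Usp18 encodes the protease that removes ISG15 from proteins and dampens signalling at the type I interferon receptor. It ran from 31.4 over 86.1 to 164 CPM at number 1 and from 6.27 over 17.0 to 38.2 CPM at number 2, a log2 difference of -2.17 (SE 0.41; edgeR adjusted p = 0.00113). Only the WT libraries reached into the overlap, since all KI libraries of number 2 lay at 13.2 to 17.5 CPM. Lgals3bp, a secreted galectin-3 ligand, ran from 172 over 204 to 283 CPM at number 1 and from 76.8 over 106 to 196 CPM at number 2 (log2 difference -0.93, SE 0.22; edgeR adjusted p = 0.00706). Its overlap came from WT 2-1, the highest library at number 2. Usp18 lies on chromosome 6 (121195924 to 121220934, plus strand) and Lgals3bp on chromosome 11 (118254065 to 118263406, minus strand).

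Mx1 encodes a GTPase that blocks influenza virus, although C57BL/6 mice carry a defective allele of it. It ran from 7.16 over 34.5 to 100.4 CPM at number 1 and from 0 over 9.49 to 17.0 CPM at number 2, a log2 difference of -2.07 (SE 0.68; edgeR adjusted p = 0.0405). Its highest libraries were KI 1-2 and KI 1-1 and its lowest KI 2-3, at 0. The call was the weakest of the 8: it was lost when any 1 of WT 1-2, WT 2-1 or the 6 KI libraries was left out, with adjusted p from 0.0566 to 0.108 in edgeR, and in DESeq2 (adjusted p = 0.0582). Mx1 lies on chromosome 16 (97668642 to 97684514, minus strand).

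Samd9l and Ifi47 rose at number 2. Samd9l, a restriction factor of poxviruses and of cell growth, ran from 5.37 over 6.53 to 48.1 CPM at number 1 and from 22.2 over 44.2 to 67.2 CPM at number 2. The log2 difference was 1.85 (SE 0.51; edgeR adjusted p = 0.0160). WT 1-1 was the one number 1 library above 10.6 CPM, and without it the difference was 2.67 (adjusted p = 4.92e-04), while without KI 2-2 it was 1.60 (adjusted p = 0.0501). Ifi47 ran from 179 over 224 to 389 CPM at number 1 and from 315 over 369 to 399 CPM at number 2 (log2 difference 0.57, SE 0.16; edgeR adjusted p = 0.0198). KI 1-1 was the number 1 library that overlapped with number 2. The Ifi47 call was lost without WT 1-2 (adjusted p = 0.0619) and without KI 1-3 (adjusted p = 0.0530), and in limma on log2(FPKM + 1) (adjusted p = 0.0633). Ifi47 lies on chromosome 11 (48890089 to 48910476, plus strand) and shares 111 exon bases with Olfr56, so their reads could not be fully separated. Samd9l lies on chromosome 6 (3322257 to 3349571, minus strand).

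The other 27 tested members had log2 differences between the numbers from -1.55 to 0.79 and did not pass in edgeR (adjusted p from 0.0643 to 0.987). DESeq2 called 3 of them, Ifit3 (adjusted p = 0.0294), Dhx58 and Dtx3l (0.0410). It did not call Mx1. By role, 4 of 4 transcription factors had a lower fitted level at number 2, 1 of them (Irf7) past the threshold, and 3 of 4 sensors had one, with 0 past it in edgeR. The nearest to the threshold among the latter was Dhx58, the regulator LGP2 of RNA sensing, at -1.29 (SE 0.50; edgeR adjusted p = 0.0824, and 0.0378 in DESeq2). Of 7 other antiviral effectors 5 had a lower fitted level, with Mx1 and Adar past the threshold, and Rsad2, the gene of the antiviral enzyme viperin, was at -1.43 (SE 0.58; edgeR adjusted p = 0.0968). Both tested IFIT genes and all 3 tested OAS genes had a lower fitted level, with Oas1a past the threshold. The 5 tested guanylate-binding and immunity-related GTPases mostly ran the other way. Of these, 4 had a higher fitted level, with Ifi47 past the threshold, but with edgeR adjusted p up to 0.987. Mx1, a GTPase counted here among the other antiviral effectors, was lower. Igtp was the one below 0, at -0.46 (SE 0.22; edgeR adjusted p = 0.156). The mean log2 CPM of these 5 GTPases, without Mx1, was higher at number 2 by 0.50 in WT and by 0.07 in KI. In WT alone Ifi47 passed as higher (0.81, edgeR adjusted p = 0.0460), and in KI alone Igtp passed as lower (-0.98, edgeR adjusted p = 0.0376).

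**Figure D3:**
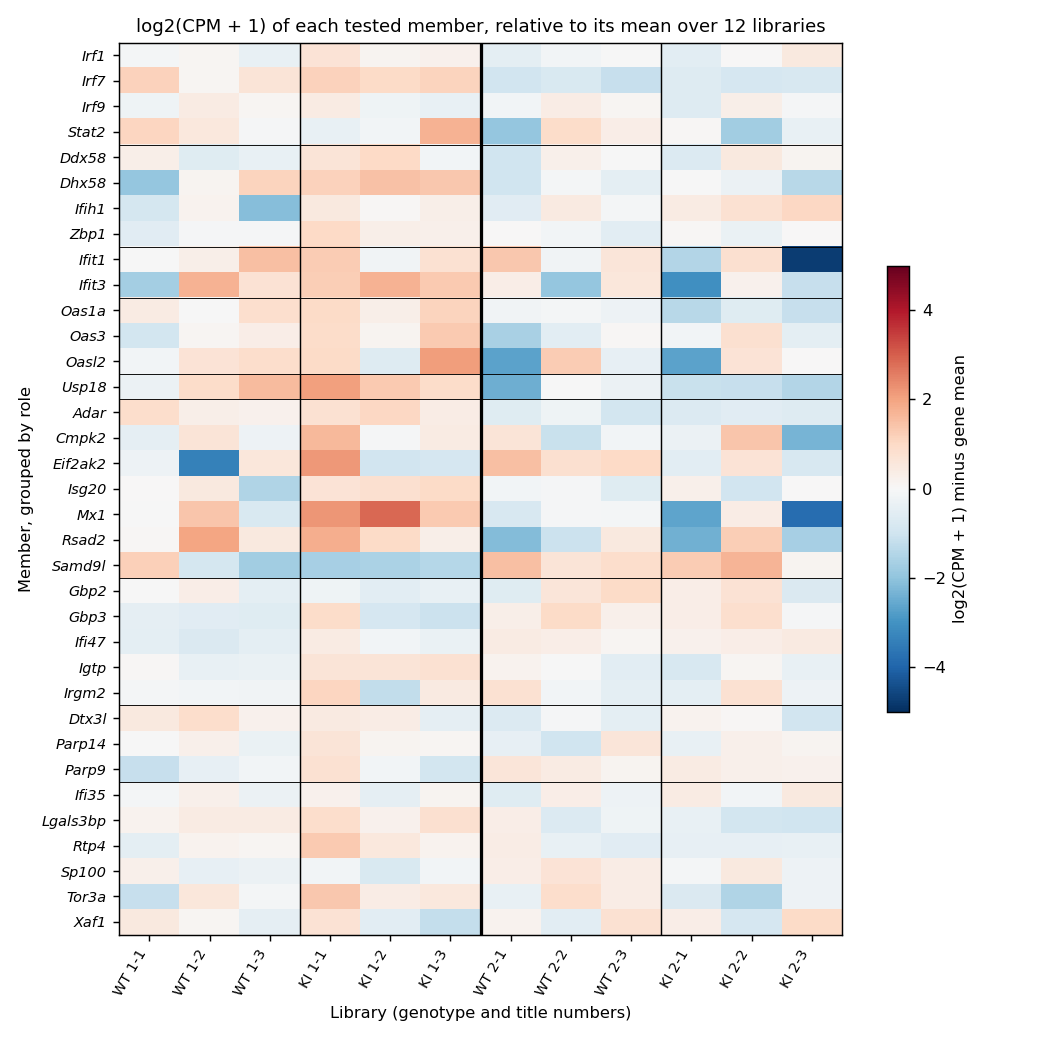
Heat map of log2(CPM + 1) for the 35 tested members (rows, grouped by role) in the 12 libraries (columns), each relative to the member's own mean over the libraries. Values ran from -4.74 (Ifit1 in KI 2-3) to 2.87 (Mx1 in KI 1-2), and Irf7 and Adar lie below their means in every number 2 library.

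Type I-like genes were taken as the IFIT and OAS genes and Isg15 (9 listed, 5 tested), and gamma-like genes as the GBP and IRGM genes and Irf1 (6 listed, 4 tested). All 5 tested type I-like members had a lower fitted level at number 2, from -1.55 for Ifit3 to -0.59 for Oas3 on the log2 scale, with a median of -0.88, and 1 of them, Oas1a, passed the threshold. Among those listed but below the filter, Oas2 (-2.43) and Oasl1 (-2.52) were lower too. Ifit2 was higher (1.54) and Isg15 hardly differed (-0.02), all in log2(CPM + 1). Of the 4 tested gamma-like members, 3 had a higher fitted level at number 2, with a median of 0.28, and 0 passed. The highest of them was Gbp3 at 0.79 (SE 0.43; edgeR adjusted p = 0.222), and Irf1 was at -0.21 (SE 0.20; edgeR adjusted p = 0.530). With Mx1, Rsad2, Usp18, Irf7, Cmpk2 and Rtp4 added to the first subset, 11 of 11 tested members had a lower fitted level and 4 passed (36.4%, beside 7.54% of all genes lower at number 2). Of these 4, Irf7, Usp18 and Mx1 are added genes, and the lists were chosen with earlier results known. With Igtp and Ifi47 added to the second, 4 of 6 had a higher fitted level and Ifi47 passed (16.7%, beside 8.47% of all genes higher). The called members Samd9l (higher at number 2), Adar and Lgals3bp (both lower) were in neither widened subset. These shares thus describe the lists as chosen and are no test of the subsets. Counts over 5 and 4 genes are small, and OAS, IFIT and GBP genes have close relatives between which reads can be split.

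A score, the mean log2 CPM over the tested genes of a list (prior count 2), summarised each library and was given no test. The score of all 35 members was 5.66 ± 0.34 at number 1 and 5.23 ± 0.27 at number 2 (SD, n = 6 each), a difference of -0.43, while the score of all tested genes differed by 0.07. The difference was -0.10 in WT and -0.77 in KI. The type I-like score was 5.24 ± 0.62 at number 1 and 4.11 ± 0.79 at number 2 (SD, n = 6 each). The gamma-like score was 5.26 ± 0.41 and 5.53 ± 0.27 (SD, n = 6 each). The type I-like minus gamma-like score was thus 1.41 lower at number 2, beyond 1 SD (0.63 at number 1 and 0.58 at number 2), with overlap at WT 1-1. It fell by 0.90 in WT and by 1.92 in KI.

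Across genotypes the score of all members was 5.39 ± 0.15 in WT and 5.50 ± 0.52 in KI (SD, n = 6 each), a difference of 0.11 that is smaller than the spread. Left out of the comparison, KI 1-1 turned the sign to -0.07. The type I-like score was 4.70 ± 0.55 in WT and 4.65 ± 1.22 in KI, and the gamma-like score 5.37 ± 0.26 and 5.42 ± 0.47 (SD, n = 6 each). The type I-like minus gamma-like score differed by -0.11 between the genotypes, within its SD of 0.72 in WT and 1.18 in KI.

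**Figure D4:**
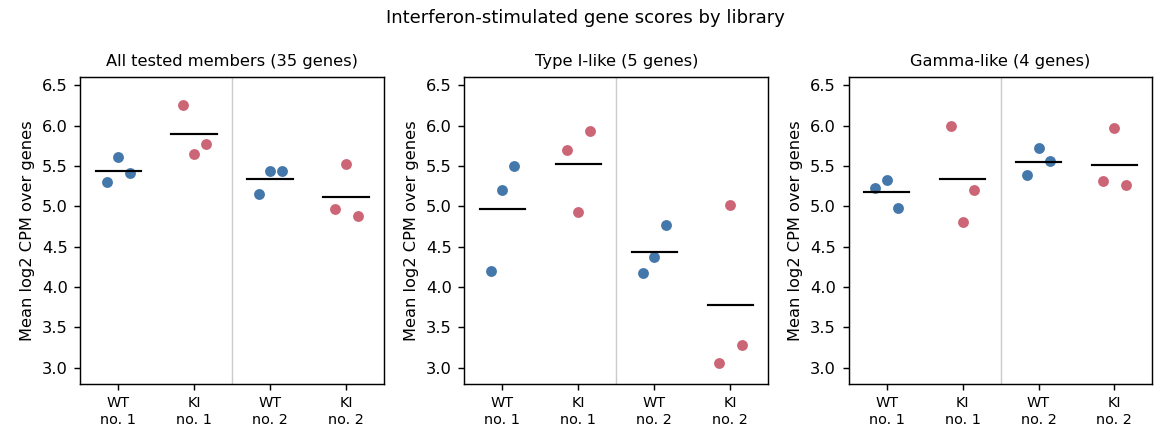
Mean log2 CPM per library over all 35 tested members, the 5 type I-like members and the 4 gamma-like members, by genotype and first title number. Each point is 1 library and each line the mean of 3. KI libraries lie at 5.64 to 6.26 at number 1 and 4.88 to 5.52 at number 2 in the left panel, while the WT libraries of both numbers lie between 5.16 and 5.60.

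Within each first number the genotypes were set side by side as well. At number 1 the score of all members was 5.31, 5.60 and 5.41 in WT 1-1, 1-2 and 1-3, and 6.26, 5.64 and 5.77 in KI 1-1, 1-2 and 1-3. Every KI library there was above every WT library, with a mean difference of 0.45. At number 2 it was 5.16, 5.43 and 5.43 in WT 2-1, 2-2 and 2-3, and 4.96, 5.52 and 4.88 in KI 2-1, 2-2 and 2-3, a mean difference of -0.22 with overlap. In fits within a single number, 28 of 34 members had a higher fitted level in KI at number 1 (median log2 difference 0.55) and 16 of 34 at number 2 (median -0.05), and 0 passed in either. The edgeR interaction test of genotype with first number called 0 of 35 members (lowest adjusted p = 0.471), beside 0 of all 7542 genes. DESeq2 and limma-voom called 0 members too, beside 7 and 0 of all genes. At an unadjusted p under 0.05 there were 5 members (14.3%), Tor3a, Igtp, Lgals3bp, Oas1a and Samd9l, beside 7.21% of all genes. The term was negative for 29 of the 35, with a median of -0.56 against 0.00 over all genes. A genotype difference that itself differs between the numbers was not shown for any single member by these tests, which rest on 3 libraries per genotype and first number.

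**Figure D5:**
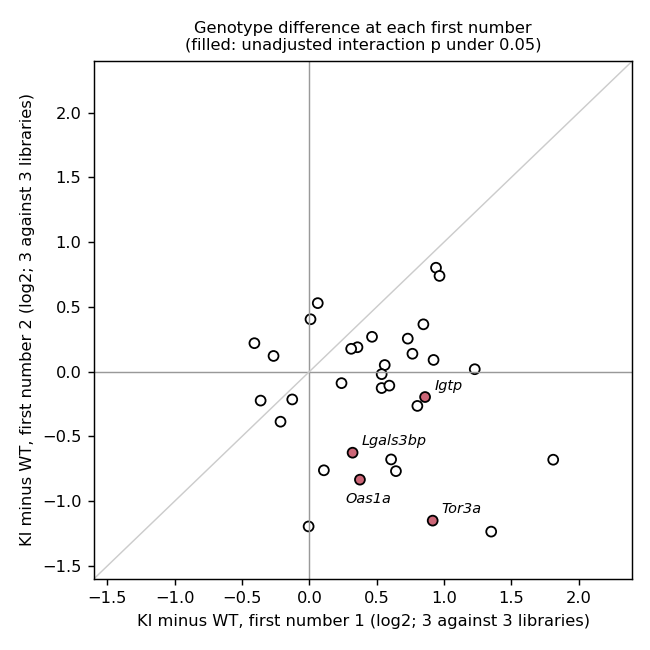
KI minus WT log2 difference at first number 1 (x) and at first number 2 (y) for the 33 members tested in both, each from 3 against 3 libraries. 14 members were above 0 at number 1 and below 0 at number 2, 28 lie below the grey diagonal of equal differences, and the 4 filled circles had an unadjusted interaction p under 0.05.

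Tor3a, an ATPase of the endoplasmic reticulum, had the smallest interaction p. It was at 16.7, 56.6 and 35.8 CPM in WT and 99.1, 49.6 and 55.7 CPM in KI at number 1, and at 28.9, 70.3 and 49.1 CPM in WT and 22.4, 12.7 and 31.8 CPM in KI at number 2. KI was thus mostly above WT at number 1 and mostly below it at number 2 (interaction log2 -2.08, SE 0.71; edgeR adjusted p = 0.471). Igtp was at 194, 144 and 147 CPM in WT and 288, 289 and 311 CPM in KI at number 1, where the genotypes did not overlap. At number 2 it was at 206, 182 and 127 CPM in WT and 105, 199 and 143 CPM in KI (interaction log2 -1.06, SE 0.37; edgeR adjusted p = 0.487).

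The 6 members below the filter had mean counts of 3.33 to 9.50 per library and were tested with exact permutations (two-sided) of log2(CPM + 1) over all 924 assignments of 6 libraries to each group, for which the smallest p is 0.0022. Isg15 ran from 1.79 over 3.15 to 7.08 CPM in WT and from 1.38 over 6.93 to 10.2 CPM in KI (log2 difference 0.48, exact permutation p = 0.275), levels close to what 3 counts are worth. Irgm1, a GTPase of autophagy, ran from 0 to 9.81 CPM in WT and from 0 to 1.91 CPM in KI (log2 difference -1.62, exact permutation p = 0.0346, not adjusted over the 6 genes). In the edgeR fit without a filter its adjusted p was 0.519, and with a pseudocount of 0.1 the exact permutation p was 0.0649. The other 5 had exact permutation p-values from 0.173 to 0.957 for KI against WT.

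By first number, Oasl1 and Oas2 were lower at number 2. Oasl1, a relative of the OAS enzymes that restrains Irf7 translation, ran from 0.635 over 10.5 to 25.1 CPM at number 1 and was at 0 in WT 2-1 and in all 3 KI libraries at number 2, with a highest value of 3.94 CPM there. The difference in log2(CPM + 1) was -2.52 (exact permutation p = 0.0130, not adjusted), and the edgeR fit without a filter gave an adjusted p of 0.00778. Oas2 ran from 1.24 over 14.3 to 19.7 CPM at number 1 and from 0 over 0.377 to 15.1 CPM at number 2, where WT 2-1 alone was above 0.975 CPM (log2 difference -2.43, exact permutation p = 0.0216, not adjusted). Its adjusted p in the edgeR fit without a filter was 0.0372. Ifit2 went the other way, from a median of 1.01 to 8.75 CPM (log2 difference 1.54, exact permutation p = 0.0714). Bst2, also called tetherin, and Isg15 had exact permutation p-values of 0.0563 and 0.957 between the numbers.

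Of 93 other genes of the interferon pathway, 85 had a row and 56 were tested. Between the genotypes 0 of 56 passed in edgeR, and DESeq2 and limma-voom called 0 in the fit with genotype alone. The smallest p belonged to Ms4a4c, a membrane protein gene induced by interferon, at 14.7 to 93.9 CPM in WT and 4.45 to 28.7 CPM in KI (log2 difference -1.87, SE 0.50; edgeR adjusted p = 0.669). Mov10, an RNA helicase gene, was at 34.9 to 62.6 CPM in WT and 38.6 to 167 CPM in KI (log2 difference 0.83, SE 0.35; edgeR adjusted p = 0.917). Among the ligands, Ifnb1, Ifna2, Ifna4, Il28b and Il27 had 0 counts in every library, and Ifng had at most 16 counts in a library.

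Between the first numbers 19 of the 56 (33.9%) passed, 7 higher and 12 lower at number 2, beside 16.0% of all genes (8.47% higher and 7.54% lower). Of the 4 tested receptors 0 passed, and the log2 difference was -0.07 for Ifnar1, -0.21 for Ifnar2 and -0.14 for Ifngr1 (edgeR adjusted p from 0.437 to 0.918). Of the kinases, Jak1 (0.75, edgeR adjusted p = 7.47e-04) and Jak2 (1.05, adjusted p = 0.00434) were higher and Tyk2 (-0.95, adjusted p = 0.0413) was lower at number 2. Both inhibitors that passed were lower, Socs3 with a log2 difference of -2.43 (edgeR adjusted p = 1.19e-04) and the phosphatase gene Ptpn6 with -0.81 (adjusted p = 9.32e-04). Irf3, which starts the type I response, was also lower (-0.55, edgeR adjusted p = 0.0380).

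Among other interferon targets, Ifi27l2a ran from 346 over 452 to 472 CPM at number 1 and from 136 over 172 to 221 CPM at number 2 (log2 difference -1.29, SE 0.16; edgeR adjusted p = 2.35e-05), with no overlap. Also lower at number 2 in edgeR were Tapbp (-1.17, adjusted p = 7.85e-05) and Tap1 (-0.62, adjusted p = 0.00702), whose products belong to the peptide-loading complex of MHC class I. Ly6e (-0.98), Pml (-0.92), Rnf213 (-0.91), Shisa5 (-0.66) and Slfn2 (-0.65) were lower as well, with adjusted p from 3.79e-04 to 0.0212. B2m, the light chain of MHC class I, was higher instead (0.99, edgeR adjusted p = 0.00154), as were Ms4a4b (1.55), Ms4a4c (1.47), Ifi203 (0.98) and Ms4a6b (0.87), with adjusted p from 4.07e-05 to 0.0164. Tap1 and Tapbp thus differed in the opposite direction from B2m.

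Libraries that matched in genotype and first number varied more in some members than in others. The median SD of log2 CPM within such sets of 3 was 0.61 over the 35 members, 1.33 over the 5 type I-like members, 0.60 over the 4 gamma-like members and 0.57 over all tested genes. Among members the SD was lowest for Ifi47 at 0.22 and Irf7 at 0.29.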

How the data were processed

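The authors deposited raw read counts per gene symbol and FPKM values (fragments scaled by transcript length and depth) for the 12 libraries. The submitters' processing notes name CASAVA, TopHat2, Cufflinks, HTSeq and DESeq2 and the mm9 build, without versions. The annotation and the use of strand are not given in the sources used here. Of the reads in the count table, 39.8% to 53.9% stood in 5 summary entries for unassigned reads, which were left out.

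Counts were filtered with filterByExpr and scaled by TMM, and genes were tested with edgeR 4.0.16 (glmQLFit, glmQLFTest) in R 4.3.3, with Benjamini-Hochberg adjustment over 7542 genes and a threshold of 0.05. Standard errors came from the log2 difference and its F statistic. KI against WT had genotype alone, first number 2 against 1 kept genotype, and the interaction had both. FPKM rows with a repeated name (27 names) were summed. The scripts were tested on simulated counts. The alternatives were other scalings and filters, DESeq2 1.42.0, limma 3.58.1 (voom, or on log2 FPKM), other samples, and leaving out each library.

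Members and gene lists were chosen with earlier results of these data known. Full values are given for members past a threshold, the 3 smallest p in each direction between the genotypes, and Irf1, Irf7, Stat2, Isg15, Gbp2 and Ifit1. Other pathway genes are named where past a threshold, otherwise the 2 with the smallest p. One gene of the pathway is not reported here.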

Additional observations from a re-analysis of the deposited data

Results flagged for a closer look

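Each tested member and each score was checked for a single library far from the other 5 of its genotype, which chance gives in about 1 of 20 groups of 6. Of 76 groups, 6 had one. Mx1 was at 35.4 CPM in WT 1-2, against 12.6 CPM in the next WT library. Rsad2 was at 72.0 CPM in the same library, with 25.1 CPM next. Stat2 was at 113 CPM in KI 1-3, with 34.9 CPM next. Irgm2 was at 25.1 CPM in WT 2-1, with 13.3 CPM next. In KI 1-1 stood Zbp1 at 197 CPM, with 122 CPM next, and the double-stranded RNA-dependent kinase gene Eif2ak2 at 45.1 CPM, with 15.6 CPM next. KI 1-1 also had the highest score over all members, 6.26 log2 CPM.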

How the results depend on the processing

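Under every scaling, filter, tool and left-out library run, 0 members passed between the genotypes and 0 for the interaction. Of all 7542 genes the main edgeR fits called 2 and 0. By first number, edgeR called 1208 of all 7542 genes, DESeq2 1593 and limma-voom 1301. Among the members the calls were 6 to 10 when each library was left out, 10 with DESeq2, 9 with limma-voom and 7 on FPKM. They moved past 1.5 times in 2 settings: 13 without a filter, where 41 members were tested, and 2 in WT alone, which has 6 libraries (8 in KI alone). For members below the filter, Irgm1 alone had an exact permutation p under 0.05 between the genotypes, 0 did with a pseudocount of 0.1, and the cause was not tested. Stat2, KI minus WT, ran from -0.85 to 0.033 without each library, reversing to 0.019 without WT 1-1 and to 0.033 without KI 2-2, and reversed to 0.11 in first number 1 alone, and the cause was not tested.

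The difference of the score of all members between the numbers moved from -0.43 to -0.098 in WT alone and to -0.769 in KI alone, past its SD of 0.31 (settings chosen after seeing the data), and the cause was not tested. In the other settings run the scores moved by less than 1 SD. The type I-like minus gamma-like score between the numbers ran from -1.83 to -1.31 without each library and was -1.15 with every member that had a count. Between the genotypes it ran from -0.64 to 0.13, and refiltering within first number 1 gave -0.11 where the filter of all 12 libraries gave 0.40.

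With the first title number as a replicate block, 0 members passed between the genotypes, and 0 with both numbers as a replicate block. Outside the members, the first-number replicate block gave Pdcd1 an edgeR adjusted p of 7.6e-06. DESeq2 then called 2 of the 56 pathway genes where edgeR called 0, beside 44 and 4 of all 7542 genes. Over the 6 WT and KI pairs with the same numbers, deviations from the genotype means correlated at 0.083 to 0.258, and 2 of 6 WT libraries correlated best with the KI library of their own numbers, so the full numbers were not taken to pair the libraries. WT and KI libraries with the same first number correlated at a mean of 0.166, against -0.165 for different first numbers. Depth limits the 6 members with mean counts under 10.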

Other observations

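Parp9 and Dtx3l, which encode partner proteins of a complex that modifies histones and viral proteins, lie head to head on chromosome 16 (NCBIM37) and share 458 exon bases on opposite strands. Between the first title numbers their fitted levels moved in opposite directions, without passing the threshold. Parp9 ran from 41.2 over 77.8 to 159 CPM at number 1 and from 103 over 118 to 142 CPM at number 2 (log2 difference 0.57, edgeR adjusted p = 0.150). Dtx3l ran from 90.0 over 163 to 230 CPM at number 1 and from 62.3 over 103 to 139.6 CPM at number 2 (log2 difference -0.65, edgeR adjusted p = 0.0643; 0.0410 in DESeq2). Where the counting ignored strand, reads in the shared bases could not be assigned to one of the pair.

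The sensor gene Dhx58 (LGP2) was at 3.49, 17.7 and 35.8 CPM in WT and 37.5, 47.1 and 42.6 CPM in KI at number 1, so that every KI library was above every WT library there. At number 2 it was at 7.53, 15.2 and 11.3 CPM in WT and 16.2, 13.2 and 5.54 CPM in KI, with overlap. Its interaction log2 was -1.22 (edgeR adjusted p = 0.864), and the pattern was chosen after its values were seen.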
